A study of Mus musculus with 68 samples.

Results

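The platelet-derived growth factor (PDGF) system of the mouse pharyngeal arches was described through 5 genes, the ligand genes Pdgfa, Pdgfb and Pdgfc and the receptor genes Pdgfra and Pdgfrb. They were chosen by gene symbol, not by a cut on any measured value, though earlier results of these data were known. All 5 were found among the 21948 genes of the expression table. RNA was sequenced from pharyngeal arch 1 (PA1) and pharyngeal arch 2 (PA2), dissected by hand from single embryos of the strain CBA/Ca/J x C57BL/10 at embryonic day E9.0, E9.5, E10.0 or E10.5. The genotype label was either wildtype or Hoxa2-/-, on the same strain, and the form of the Hoxa2 mutation is not given in the sources used here. There were 68 libraries from 35 embryos, and 33 embryos contributed PA1 as well as PA2. For the wildtype the number of libraries by stage, earliest first, was 5, 5, 5 and 3 for PA1 and 4, 4, 5 and 3 for PA2. For the Hoxa2-/- label it was 4, 5, 5 and 3 for each arch. Replicates of a group were different embryos, and the arches of 1 embryo carry the same replicate number.

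PDGF ligands are secreted dimers that bind receptor tyrosine kinases on neighbouring cells. Pdgfa and Pdgfc encode the chains that act chiefly through PDGF receptor alpha, the product of Pdgfra, while the chain encoded by Pdgfb binds both receptor alpha and receptor beta, the product of Pdgfrb. In the face and arches the ligand chains A and C are made largely by epithelium and receptor alpha by the neural crest mesenchyme beneath it, and loss of receptor alpha signalling is known for clefts of the face and palate. Pdgfb is best known as the endothelial ligand that recruits receptor beta-bearing pericytes and smooth muscle cells to vessels.

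Sequence upstream of the start sites is shown for the 3 members with an entry in the RefSeq promoter table (GRCm38.p6), because Pdgfc rose with stage in all 4 series compared, Pdgfra differed between the arches and stages, and Pdgfa was the ligand that differed between the arches. Each run reads 5′ to 3′ on the gene's own strand and ends at the RefSeq start, except that of Pdgfa, which stops where annotated exon begins. Capitals mark motif matches on either strand among the GC box GGGCGG, the TATA box TATAAA and the CArG box, which serum response factor binds.
Pdgfa, chr5:138995038-138995194, minus strand: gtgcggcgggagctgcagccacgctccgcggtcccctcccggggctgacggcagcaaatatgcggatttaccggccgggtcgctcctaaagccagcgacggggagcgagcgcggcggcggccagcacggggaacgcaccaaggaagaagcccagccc
Pdgfc, chr3:81036166-81036415, plus strand: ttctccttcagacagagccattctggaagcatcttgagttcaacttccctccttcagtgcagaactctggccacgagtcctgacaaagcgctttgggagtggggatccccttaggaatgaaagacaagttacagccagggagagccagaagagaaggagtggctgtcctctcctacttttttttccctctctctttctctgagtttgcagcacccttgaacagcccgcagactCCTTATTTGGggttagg
Pdgfra, chr5:75152001-75152250, plus strand: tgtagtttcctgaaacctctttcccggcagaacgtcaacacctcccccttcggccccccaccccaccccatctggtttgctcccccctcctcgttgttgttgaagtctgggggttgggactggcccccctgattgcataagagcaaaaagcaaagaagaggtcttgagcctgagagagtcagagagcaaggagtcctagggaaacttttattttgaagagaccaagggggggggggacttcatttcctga

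The window of Pdgfc held 1 CArG box, which 1.5% of the 32851 promoter windows of the same 250 bases hold, and neither other motif, held by 32.7% and 12.4% of windows. The 250-base window of Pdgfra held none of the 3 motifs. The 157 bases of Pdgfa held none of them either, where 17.6%, 7.5% and 0.8% of windows of that length hold the GC, TATA and CArG box. That window lies inside the annotated span of Pdgfa (chr5:138976014-138997370), not before its annotated start. The promoter entry it was cut from overlaps exon of another gene, 6330403L08Rik. Guanine and cytosine made up 72.0% of the Pdgfa window, 50.8% of that of Pdgfc and 54.4% of that of Pdgfra, beside medians of 51.0% at 157 bases and 52.4% at 250 bases. These matches describe letters only. Pdgfb and Pdgfrb have no entry.

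The libraries held 8912251 to 20619153 counted reads. In them the sum of 10 mesenchyme markers, all detected in every group, ran from 389.5 to 1231 CPM (counts scaled by the authors to a common library size). Hoxa2 itself averaged at most 0.519 CPM in any PA1 group. In PA2 it was not lower under the Hoxa2-/- label but higher at E10.0, with 97.7 ± 13.3 against 47.5 ± 4.49 CPM (SD, n = 5 each, log2 difference 1.02, adjusted p = 0.00011), so the label is given below only as a label. Counts over the whole gene cannot check a part that may be deleted. A division that no label explains also ran through the libraries. Ski and Irf2bp2, a transcriptional co-repressor and a cofactor, were at 26.3 to 108 and 26.6 to 82.6 CPM in the 24 wildtype libraries from any stage but E10.0. They were at 9.52 to 15.5 and 7.36 to 13.5 CPM in the 10 wildtype libraries of E10.0, and at 9.28 to 22.8 and 7.62 to 19.1 CPM in the 34 labelled Hoxa2-/-. Genotype and this division therefore cannot be told apart outside E10.0.

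All 5 members passed the filter of at least 1 CPM in at least 3 libraries. Per kilobase of annotated exon, which allows levels of different genes to be compared, the 3 ligands differed widely. In wildtype PA1 at E9.0 Pdgfa stood at 19.2 ± 3.11 CPM per kb, Pdgfc at 5.41 ± 0.815 and Pdgfb at 0.478 ± 0.238 (SD, n = 5). In the same group Pdgfrb stood at 18.9 ± 1.91 and Pdgfra at 12.7 ± 0.964 CPM per kb. By E10.5 in wildtype PA1 the order had changed, with Pdgfc at 29.9 ± 0.363, Pdgfra at 21.1 ± 2.03, Pdgfa at 18.4 ± 1.26, Pdgfrb at 16.4 ± 1.56 and Pdgfb at 0.237 ± 0.0999 (SD, n = 3). Pdgfb thus stayed the lowest of the 5 at both stages. Exon length here is the union of all annotated transcripts, so a gene read mostly from a short transcript is set too low.

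**Figure D1:**
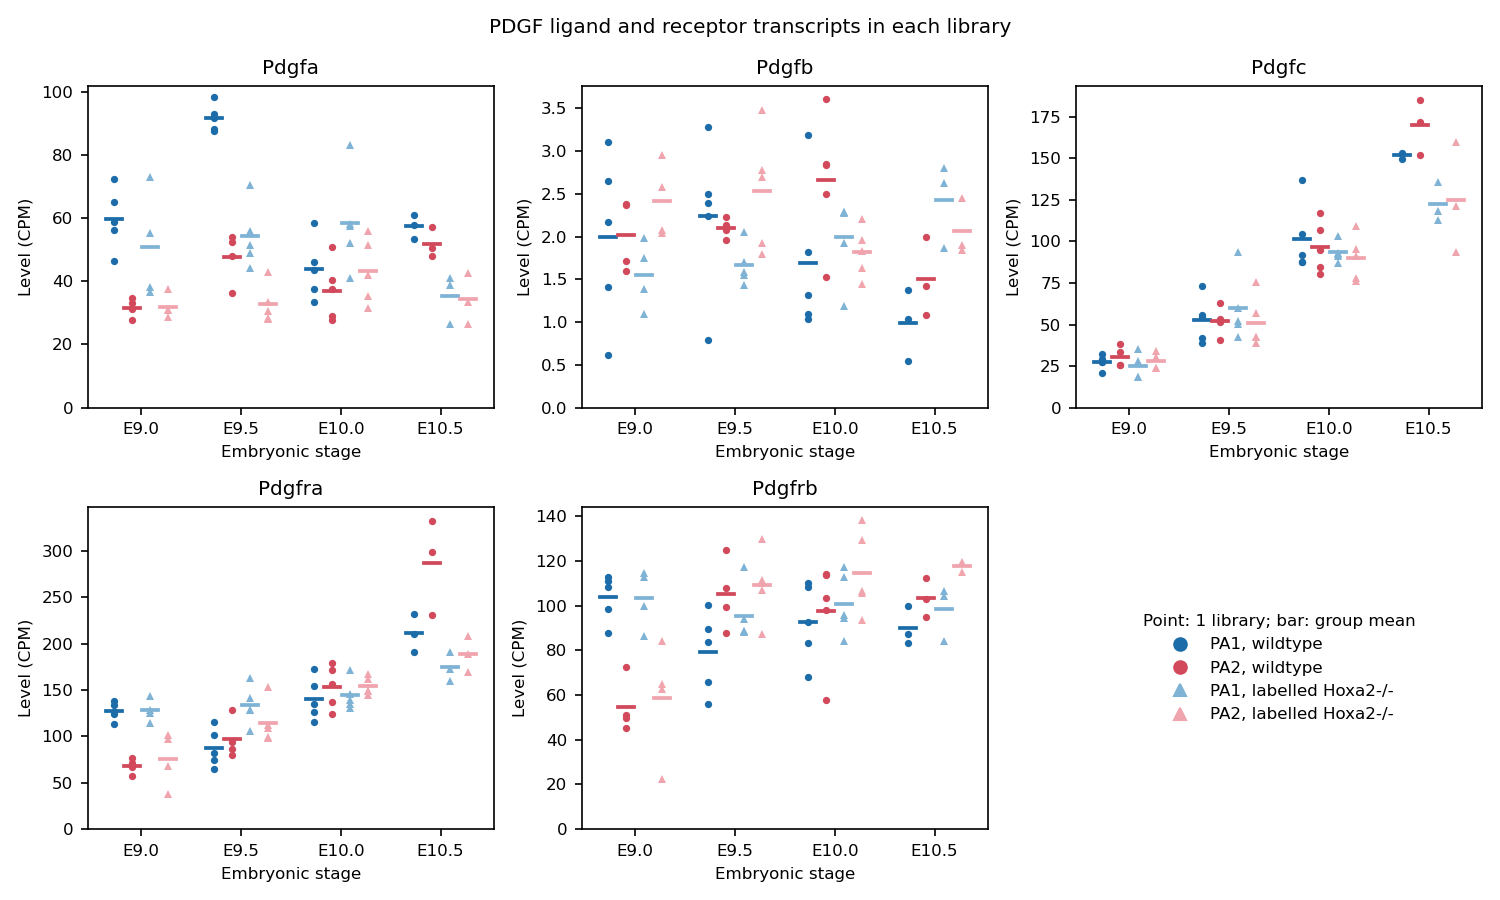
Level of each of the 5 members in CPM (vertical axis, linear, from 0) at each stage (horizontal axis), with 1 point per library and a bar at the group mean. Pdgfc climbs in all 4 series, Pdgfra and Pdgfrb are low in PA2 at E9.0, and Pdgfa is higher in PA1 than in PA2 at E9.0 and E9.5.

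The first comparison was between the arches, at each stage and under each label. Pdgfa, the epithelial ligand, was lower in PA2 at E9.0 and E9.5 under both labels, at 0.52 to 0.63 of its PA1 mean. Both receptors were lower in PA2 at E9.0, again under both labels, at 0.53 to 0.59 of their PA1 means. Neither Pdgfb nor Pdgfc passed the test in any of the 8 comparisons. Of 40 member tests 8 were called at an adjusted p under 0.05 (limma with Benjamini-Hochberg adjustment over 18428 genes), all 8 with PA2 lower. Because these are bulk samples, fewer cells of a type and less RNA per cell cannot be told apart here or in any later comparison.

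These calls stand beside the share of all genes called. At E9.0 it was 3 of the 5 members beside 18.7% of genes in the wildtype and 3 of 5 beside 24.6% under the Hoxa2-/- label. At E9.5 it was 1 of 5 beside 26.3% in the wildtype and 1 of 5 beside 9.58% under the label, a single member each time. No member was called at E10.0, where 5.94% and 4.23% of genes were, or at E10.5, where 1.52% and 1.37% were.

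Pdgfa (ENSMUSG00000025856, GRCm38 chr5:138976014-138997370, minus strand) read 56.3, 58.8, 46.5, 72.4 and 65.0 CPM in wildtype PA1 at E9.0 and 31.2, 27.6, 34.8 and 33.0 CPM in wildtype PA2. Every PA1 library was above every PA2 library. The log2 difference, PA2 minus PA1, was -0.89 ± 0.18 (SE, adjusted p = 0.00023, limma). At E9.5 the wildtype PA1 libraries read 93.0, 87.4, 88.3, 98.2 and 91.7 CPM, the highest group mean of the gene, and the PA2 libraries 48.0, 52.4, 36.1 and 54.0. The groups were again apart, with a difference of -0.95 ± 0.18 (adjusted p = 0.00011).

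The same order held for the Hoxa2-/- label with a wider spread. At E9.0 PA1 read 36.7, 73.1, 38.0 and 55.1 CPM and PA2 30.9, 28.6, 37.4 and 30.9 CPM. The groups overlapped, since 1 PA1 library was below the highest PA2 library, and the difference was -0.60 ± 0.19 (adjusted p = 0.015). The call was lost without PA1 replicate 2 (-0.41, adjusted p = 0.13) or PA1 replicate 4 (-0.54, adjusted p = 0.052). At E9.5 PA1 read 51.4, 70.5, 44.3, 56.0 and 49.0 CPM and PA2 28.1, 33.4, 30.6, 28.2 and 43.1, which did not overlap (difference -0.71 ± 0.17, adjusted p = 0.003). The arches then drew together. At E10.0 the difference was -0.24 in the wildtype and -0.42 under the label, with adjusted p of 0.48 and 0.17. At E10.5 it was -0.14 (95% interval -0.58 to 0.30) and -0.05 (-0.49 to 0.39). An antisense gene, 6330403L08Rik, overlaps an exon of Pdgfa, and the library kit does not mark strand, so reads of the pair cannot be told apart there. That gene averaged 2.82 CPM. The same holds for Pdgfc with Gm16000 and for Pdgfra with Gm42802 and Gm42803, which lie opposite their exons and have no value here.

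Pdgfra (ENSMUSG00000029231, chr5:75152292-75198215, plus strand), the receptor for the A and C chains, read 124, 139, 134, 126 and 113 CPM in wildtype PA1 at E9.0 and 76.6, 57.2, 71.5 and 66.5 CPM in PA2. The 2 groups did not overlap, and the difference was -0.90 ± 0.17 (adjusted p = 5.1e-05). With the Hoxa2-/- label PA1 read 143, 126, 129 and 115 CPM and PA2 67.6, 101, 38.0 and 96.8 CPM. All 4 PA2 libraries were below all 4 PA1 libraries, with replicate 3 far the lowest (difference -0.84 ± 0.17, adjusted p = 0.00026). By E9.5 the arches overlapped, at 87.7 ± 20.53 and 97.3 ± 21.2 CPM in the wildtype (SD, n = 5 and 4). The wildtype difference at E10.5, where PA2 read 299, 332 and 231 CPM and PA1 211, 232 and 191, was 0.43 ± 0.20 with an adjusted p of 0.62.

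Pdgfrb (ENSMUSG00000024620, chr18:61045150-61085061, plus strand), the receptor of vascular mural cells that is also present in mesenchyme, read 113, 111, 108, 87.8 and 98.6 CPM in wildtype PA1 at E9.0 and 72.4, 51.2, 45.2 and 49.7 CPM in PA2. The groups were apart (difference -0.93 ± 0.20, adjusted p = 0.0004). Under the Hoxa2-/- label PA1 read 113, 99.9, 114 and 86.5 CPM and PA2 65.0, 83.9, 22.2 and 62.9 CPM, again without overlap (difference -0.95 ± 0.21, adjusted p = 0.0005). At E9.5 the order was the other way in the wildtype, at 79.0 ± 17.9 CPM in PA1 and 105.1 ± 15.6 in PA2 (SD, n = 5 and 4), but the difference of 0.42 did not pass (adjusted p = 0.1). Without PA1 replicate 2 it did (0.52, adjusted p = 0.049). The PA1 replicates with the lowest levels, 1 and 3 at 65.6 and 56.1 CPM, had a long-gene index, defined below, of -0.36 and -0.50.

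Other measures moved with the receptors at E9.0. The mesenchyme marker sum was 389.5 to 485 CPM in wildtype PA2 and 697 to 739.6 in wildtype PA1, and under the label 400.3 to 571 and 559.7 to 765 CPM. It was lower in PA2 at E10.5 too, at 661 to 694 against 947 to 1150.2 CPM in the wildtype, where neither receptor's mean was lower in PA2. The 6 heart muscle markers in the table, of 7 listed, were all detected and summed to 29.3 to 1072 CPM in wildtype PA2 at E9.0 against 12.8 to 33.7 in PA1. Under the label those sums were 73.0 to 945 against 19.5 to 58.6 CPM. The 10 mural cell markers, all detected, summed to 204 to 905 against 136 to 239 CPM in the wildtype. Under the label those sums were 238 to 831 against 124 to 178 CPM. They were mostly higher in PA2, where Pdgfrb was lower, but the lowest PA2 sums were in libraries low in heart markers. Wildtype PA2 replicate 2, with 29.3 CPM of heart markers, held 204 CPM of mural markers. PA2 replicate 3 under the label, with 73.0, held 238. The part of heart muscle in the mural sums was not tested. The 8 red cell markers, all detected, summed to 3349 to 64186 against 1520.2 to 6534 CPM in the wildtype and to 1853 to 3871 against 498 to 2426 CPM under the label. Without the 10 PA2 libraries that held over 300 CPM of heart genes, the wildtype differences of Pdgfra and Pdgfrb at E9.0 were -1.13 and -1.0, but each PA2 group of E9.0 then held 1 library, whose spread is taken from the other groups. The wildtype one was replicate 2, with 64186 CPM of red cell markers and a long-gene index, defined with the receptor scatter, of -0.37. Under the label, where that library was replicate 3, they were -1.72 and -2.16, and the difference of Pdgfa was -0.37. Labelled replicate 3 had 431 CPM of yolk sac transcripts and a long-gene index of -0.80, the lowest of all libraries. Without the 4 PA2 libraries richest in red cell or yolk sac transcripts the 4 receptor differences were -0.82, -0.91, -0.55 and -0.55, and all 4 were still called. The last pair, under the Hoxa2-/- label, were down from -0.84 and -0.95 once PA2 replicate 3 was left out. When only the groups compared were fitted, these 2 receptor calls were lost (0.091 and 0.12), as was that of Pdgfa (adjusted p = 0.12).

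**Figure D2:**
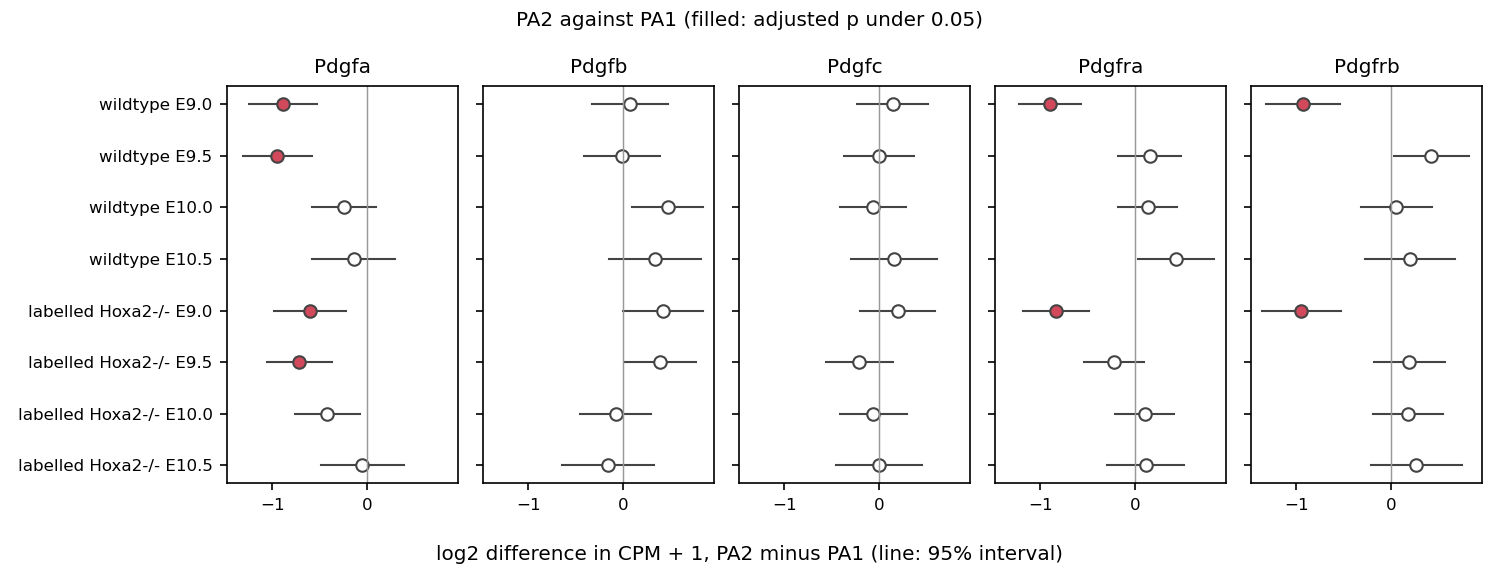
Difference between the arches for each member, as log2(CPM + 1) in PA2 minus PA1 (horizontal axis), in the 8 pairs of groups (vertical axis), with 95% intervals as lines and adjusted p under 0.05 as filled points. The 8 filled points are Pdgfa at E9.0 and E9.5 and both receptors at E9.0, all to the left of 0.

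Receptor levels also followed a property of the libraries, shown in the scatter of receptor level against the long-gene index. This index is the median log2 deviation of the genes with at least 6732 exon bases minus that of genes with at most 2404, over 12007 genes, and it ran from -0.80 to 0.30. Across 68 libraries, as deviations from group means, Pdgfrb followed it with a Pearson r of 0.839 (Spearman rho 0.781) and Pdgfra with 0.708 (rho 0.668). Without the 2 libraries farthest out, r was 0.771 and 0.667 over 66. The ligands did not follow it alike, with r of -0.282 for Pdgfa, 0.116 for Pdgfc and -0.064 for Pdgfb. The points share their library's depth and handling, and each r is a description. With the index as a covariate, the differences of Pdgfra and Pdgfrb between the arches at E9.0 were -0.64 and -0.56 in the wildtype and -0.58 and -0.58 under the label, and all 4 were still called.

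**Figure D3:**
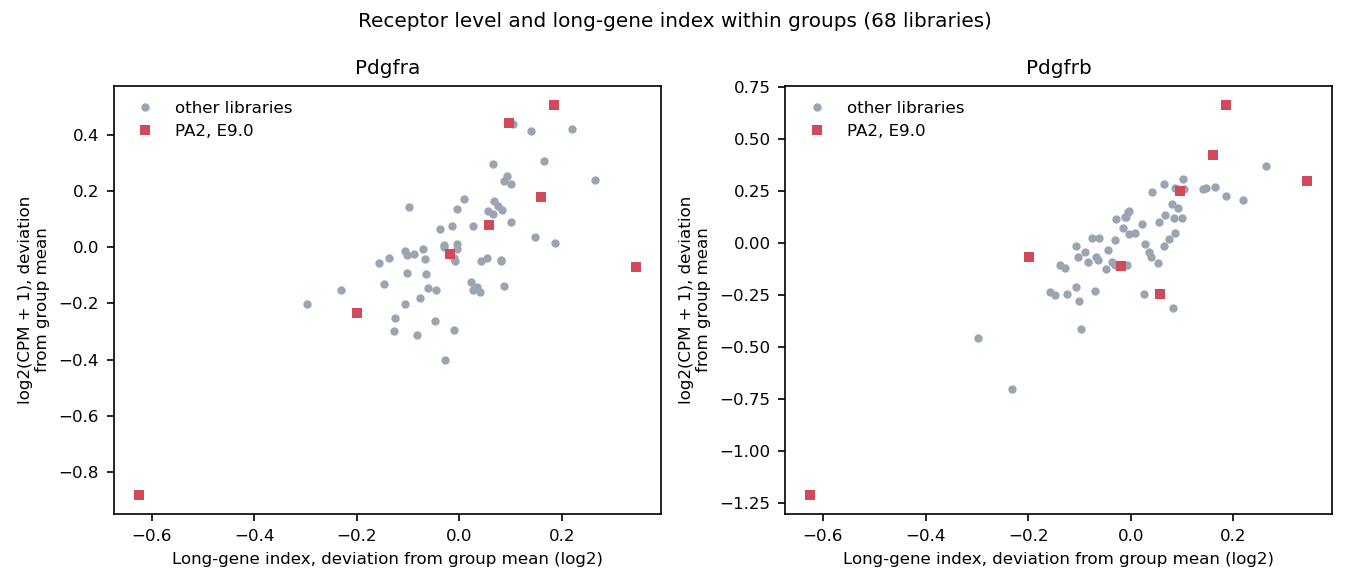
Level of Pdgfra and Pdgfrb as log2(CPM + 1) (vertical axis) against the long-gene index (horizontal axis), both as deviations from the mean of the library's group, for 68 libraries, with the PA2 libraries of E9.0 as squares. The levels rise with the index (r = 0.708 and 0.839), and the square at the lower left is PA2 replicate 3 of E9.0 labelled Hoxa2-/-.

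The second comparison set E10.5 against E9.0 within each arch and label, where both stages lie on the same side of the unlabelled division. Pdgfc rose in all 4 series, to 4.44 to 5.53 times its E9.0 mean. Pdgfra rose in both PA2 series and in wildtype PA1, and Pdgfrb rose in both PA2 series. Pdgfa rose in wildtype PA2, and Pdgfb fell in wildtype PA1. Of 20 member tests 11 were called, in a setting where many genes changed: 3 of 5 beside 42.5% of genes in wildtype PA1, 4 of 5 beside 36.9% in wildtype PA2, 1 of 5 beside 31.2% in PA1 labelled Hoxa2-/- and 3 of 5 beside 30.9% in PA2 so labelled.

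Pdgfc (ENSMUSG00000028019, chr3:81036416-81214040, plus strand), whose promoter window held the CArG box, encodes a ligand that is secreted latent and freed by proteases such as tissue plasminogen activator. In wildtype PA1 it read 29.2, 27.7, 21.1, 32.4 and 27.2 CPM at E9.0 and 149.9, 153 and 153 at E10.5. In wildtype PA2 it read 33.3, 25.3, 38.5 and 25.8 and then 152, 185 and 172 CPM. The rises were 2.44 ± 0.20 and 2.45 ± 0.21 on the log2 scale (SE, adjusted p = 1.4e-14 and 6.2e-14, limma), with no library of E10.5 near one of E9.0. The stages between lay between, at 52.8 ± 13.7 and 102 ± 21.0 CPM in wildtype PA1 at E9.5 and E10.0 (SD, n = 5 each). Under the Hoxa2-/- label PA1 rose from 18.5, 28.1, 18.4 and 35.5 to 136, 113 and 118 CPM, and PA2 from 24.1, 30.2, 24.0 and 34.1 to 159.6, 93.8 and 121 CPM. Those rises were 2.29 ± 0.21 and 2.09 ± 0.21 (adjusted p = 1.6e-12 and 1.8e-11). All 16 group means ordered by stage, each stage's 4 means lying together, and between neighbours in that order only the lowest E9.5 group and the highest E9.0 group had ranges that did not overlap. At E10.5 the arches overlapped under both labels, and the wildtype arch difference was 0.15 (95% interval -0.30 to 0.61).

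Macrophage markers moved with Pdgfc, and so did mesenchyme markers. The 7 macrophage genes, all in the table, summed to 0.418 to 2.20 CPM in wildtype PA1 at E9.0 and 18.3 to 25.5 CPM at E10.5. In wildtype PA2 they summed to 0.662 to 6.68 and 15.3 to 22.3 CPM. Under the Hoxa2-/- label they summed to 0.305 to 0.820 and 7.71 to 21.5 CPM in PA1 and to 0.0946 to 1.57 and 6.94 to 15.9 CPM in PA2. In the labelled E9.0 libraries Fcgr1 was at 0 throughout, Tyrobp in all of PA1 and Ptprc in all of PA2. Endothelial markers, all 10 detected, went the other way. In wildtype PA1 their sums were 347.7 to 426 CPM at E9.0 and 188 to 220.3 at E10.5, and in wildtype PA2 309 to 417 and 200.6 to 225. Under the label they were 347.5 to 426 and 205.7 to 219.8 CPM in PA1, and 257.8 to 592 and 246 to 313 CPM in PA2. Epithelial markers, all 10 detected, were lower at E10.5 too, at 449.9 to 524 CPM against 817 to 1206 in wildtype PA1 and 389.8 to 453 against 795 to 1200.2 in wildtype PA2. Under the label they were at 511 to 544 against 973 to 1079.9 CPM in PA1 and 397 to 501 against 989 to 1469.6 CPM in PA2. Mesenchyme markers, all 10 detected, were higher at E10.5. In wildtype PA1 they summed to 697 to 739.6 CPM at E9.0 and 947 to 1150 at E10.5. In wildtype PA2 they summed to 389.5 to 485 and 661 to 694 CPM. Under the label they summed to 559.7 to 765 and 1060 to 1141 CPM in PA1. In PA2 under the label they summed to 400.3 to 570.5 and 747 to 822 CPM. The part of any of these in the levels of Pdgfc was not tested.

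Pdgfra rose from the values at E9.0 given above to 211, 232 and 191 CPM in wildtype PA1 and 299, 332 and 231 CPM in wildtype PA2 at E10.5. Neither arch's stages overlapped, and the rises were 0.73 ± 0.18 (adjusted p = 0.0008) and 2.06 ± 0.19 (adjusted p = 3.4e-13). Under the label PA1 reached 173, 160.1 and 191 CPM and PA2 208, 169 and 189 CPM. There PA2 rose by 1.40 (adjusted p = 3.6e-08), while the difference of 0.45 in PA1 did not pass (adjusted p = 0.063), though its libraries did not overlap and it passed when only the groups compared were fitted (adjusted p = 0.0029). In wildtype PA1 the path was not even, since E9.5 read 82.5, 102, 74.6, 64.7 and 115 CPM, with a mean below that of E9.0. Of those 5 libraries, replicates 1 and 3 also had a long-gene index under -0.3. The highest group mean of the gene was wildtype PA2 at E10.5 and the lowest wildtype PA2 at E9.0, and every pair of neighbours in the order of its 16 group means overlapped in range.

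Pdgfrb, which read 72.4, 51.2, 45.2 and 49.7 CPM in wildtype PA2 at E9.0, reached 103, 112 and 95 CPM at E10.5, a rise of 0.93 ± 0.22 (adjusted p = 0.00078). In PA2 labelled Hoxa2-/- it reached 119, 115 and 119 CPM, a rise of 1.15 ± 0.22 (adjusted p = 5.7e-05) from 65.0, 83.9, 22.2 and 62.9 CPM at E9.0. Without replicate 3 of E9.0, the lowest of these, the rise was 0.74 (adjusted p = 0.0019), and it did not pass when only the groups compared were fitted (adjusted p = 0.078). In PA1 the differences were -0.20 (95% interval -0.63 to 0.23) and -0.07 (-0.52 to 0.38). Heart muscle markers in PA2 went the other way, from the sums at E9.0 given above to 3.49 to 7.11 CPM at E10.5 in the wildtype and 3.65 to 7.52 CPM under the label. Without the 10 PA2 libraries rich in them the rises of Pdgfra and Pdgfrb in PA2 were 2.29 and 1.00 in the wildtype and 2.28 and 2.35 under the label, each with 1 library at E9.0. The E9.5 groups of PA2 already averaged 105.1 ± 15.6 and 109 ± 15.2 CPM (SD, n = 4 and 5), near the E10.5 values. The highest of the gene's 16 group means was PA2 at E10.5 under the label, the lowest wildtype PA2 at E9.0, and every pair of neighbours in that order overlapped in range.

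Pdgfa went from the E9.0 values above to 57.2, 48.1 and 50.5 CPM in wildtype PA2 at E10.5, a rise of 0.70 ± 0.21 (adjusted p = 0.0056). It read 61.1, 53.2 and 57.7 CPM in wildtype PA1, where the difference was -0.05 (adjusted p = 0.87). Under the label PA1 read 40.9, 38.7 and 26.6 CPM at E10.5 and PA2 33.4, 42.7 and 26.5 CPM, with differences of -0.47 (adjusted p = 0.071) and 0.08 (adjusted p = 0.81). The first of these passed without PA1 replicate 1 of E9.0 (-0.61, adjusted p = 0.03) or without replicate 3 (-0.59, adjusted p = 0.036). The gene had no steady course, since its highest group mean, 91.7 ± 4.29 CPM in wildtype PA1 at E9.5 (SD, n = 5), was followed by 43.7 ± 9.57 CPM at E10.0 (SD, n = 5). That step crosses the unlabelled division. Only the highest group stood apart in range from its neighbour in the order of the 16 means.

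Pdgfb (ENSMUSG00000000489, chr15:79995874-80014977, minus strand), the endothelial ligand, was low throughout, from 0.545 to 3.61 CPM over the 68 libraries, where 3 reads are 0.140 to 0.328 CPM. In wildtype PA1 it read 1.41, 2.17, 0.615, 3.11 and 2.65 CPM at E9.0 and 0.545, 1.37 and 1.04 at E10.5. The groups overlapped, and the fall of -0.54 ± 0.22 (adjusted p = 0.04) was lost without any of 5 of the 8 libraries, at -0.57 to -0.37 with adjusted p of 0.069 to 0.26. Those were replicates 2, 4 and 5 of E9.0 and replicates 1 and 3 of E10.5. It was also lost when only the groups compared were fitted (adjusted p = 0.13). In the other 3 series the differences of Pdgfb were -0.28, 0.43 and -0.15, with adjusted p of 0.36 to 0.66. Its largest arch difference was 0.47, in the wildtype at E10.0, from 1.82, 1.10, 1.04, 3.19 and 1.32 CPM in PA1 to 3.61, 1.52, 2.84, 2.85 and 2.50 in PA2, which overlapped (adjusted p = 0.14). Without PA1 replicate 4 it passed (0.65, adjusted p = 0.03). Under the label at E9.0 the arches did not overlap, at 1.76, 1.99, 1.09 and 1.39 CPM in PA1 and 2.04, 2.96, 2.08 and 2.58 in PA2, but the difference of 0.42 did not pass (adjusted p = 0.14). Every pair of neighbours in the order of its 16 group means overlapped in range.

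The third comparison asked whether the arch difference itself changed from E9.0 to E10.5. For both receptors it did, under both labels, so that 2 of 5 members were called beside 3.35% of genes in the wildtype and 2 of 5 beside 7.33% under the Hoxa2-/- label. For Pdgfra the arch difference at E10.5 minus that at E9.0 was 1.33 ± 0.26 in the wildtype (adjusted p = 0.00073) and 0.95 ± 0.27 under the label (adjusted p = 0.02). For Pdgfrb it was 1.13 ± 0.31 (adjusted p = 0.025) and 1.22 ± 0.32 (adjusted p = 0.013). Pdgfa, with 0.74 and 0.55, did not pass (adjusted p = 0.15 and 0.25), although the wildtype value did when only the groups compared were fitted (adjusted p = 0.017). The value nearest 0 in the wildtype was that of Pdgfc, 0.01 (95% interval -0.58 to 0.60).

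The receptor changes differed in how far 1 library decided them. The wildtype value of Pdgfra was called in every fit that left out 1 library. That of Pdgfrb was lost without any of 5, replicates 1 and 3 of PA1 at E10.5, replicate 4 of PA2 at E9.0 and replicates 1 and 2 of PA2 at E10.5, at 1.047 to 1.130 with adjusted p of 0.056 to 0.074. Under the label, leaving out PA2 replicate 3 of E9.0 gave 0.66 for Pdgfra (adjusted p = 0.086) and 0.81 for Pdgfrb (adjusted p = 0.05). That library had a long-gene index of -0.80. Leaving out PA1 replicate 1 of E10.5 gave 0.94 and 1.11 (adjusted p = 0.056 and 0.058), and leaving out PA2 replicate 1 of E10.5 gave 0.88 for Pdgfra (adjusted p = 0.058). When only the groups compared were fitted, both changes under the label were lost (adjusted p = 0.17 and 0.17). Without the heart-rich PA2 libraries they were 1.83 and 2.42, with replicate 3 the only PA2 library of E9.0. With the index as a covariate they were 0.52 (adjusted p = 0.12) and 0.61 (adjusted p = 0.039).

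The fourth comparison set libraries labelled Hoxa2-/- against wildtype ones within each arch and stage. At E10.0, where the genotype labels do not coincide with the division, no member was called in either arch, beside 0% of genes in PA1 and 0.0814% in PA2. With limma 0 genes passed in PA1 at E10.0, 424 had an unadjusted p under 0.05, and edgeR's quasi-likelihood test on recovered reads also called 0. The member with the largest difference there was Pdgfa in PA1, from 33.4, 43.5, 46.0, 37.5 and 58.4 CPM in the wildtype to 58.0, 52.1, 57.5, 41.1 and 83.1 under the label, which overlapped (difference 0.40 ± 0.17, adjusted p = 1). The 95% intervals at E10.0 were -0.27 to 0.36 and -0.29 to 0.33 for Pdgfra in PA1 and PA2, and -0.24 to 0.51 and -0.12 to 0.63 for Pdgfrb. For Pdgfc both intervals were -0.46 to 0.25.

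At the other stages 3 of 30 tests were called, each one a difference that genotype and the unlabelled division share. In PA1 at E9.5 it was 2 of 5 members beside 23.6% of genes. Pdgfa was lower under the label, where it read 51.4, 70.5, 44.3, 56.0 and 49.0 CPM against 93.0, 87.4, 88.3, 98.2 and 91.7 in the wildtype, without overlap (difference -0.76 ± 0.17, adjusted p = 0.00085). Pdgfra was higher, with 141, 106, 162, 129 and 129 CPM against 82.5, 102, 74.6, 64.7 and 115, where only the highest wildtype library reached the lowest labelled one (difference 0.62 ± 0.16, adjusted p = 0.003). With the long-gene index as a covariate this difference was 0.27 (adjusted p = 0.14). In PA2 at E10.5 it was 1 of 5 beside 10.3%. There Pdgfra read 208, 169 and 189 CPM under the label and 299, 332 and 231 in the wildtype, without overlap (difference -0.59 ± 0.20, adjusted p = 0.047). That call was lost without any of 5 of the 6 libraries, all but wildtype replicate 3, at -0.66 to -0.48 with adjusted p of 0.058 to 0.21, and also with a pseudocount of 0.25 or without the filter on low genes (adjusted p = 0.051 and 0.052).

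No member was called in the remaining 4 groups of tests, beside 2.08% and 3.05% of genes in PA1 at E9.0 and E10.5, and 14% and 4.48% in PA2 at E9.0 and E9.5. Pdgfa came near at E10.5, at 40.9, 38.7 and 26.6 CPM under the label against 61.1, 53.2 and 57.7 in wildtype PA1 and 33.4, 42.7 and 26.5 against 57.2, 48.1 and 50.5 in PA2. Neither pair overlapped, with differences of -0.70 and -0.61 and an adjusted p of 0.065 for each. Both passed when only the groups compared were fitted (adjusted p = 0.038 and 0.035). The first also passed without labelled PA1 replicate 1 (-0.82, adjusted p = 0.049), and the second without labelled PA2 replicate 2 (-0.78, adjusted p = 0.041). Pdgfb in PA1 at E10.5 was 2.44 ± 0.501 CPM under the label and 0.985 ± 0.416 in the wildtype (SD, n = 3 each, difference 0.80, adjusted p = 0.054), and without labelled replicate 1 it passed (0.93, adjusted p = 0.043), as it did with a pseudocount of 0.25 (1.16, adjusted p = 0.047) or median-of-ratios scaling (0.81, adjusted p = 0.045). In PA2 at E9.5 the difference of Pdgfa, -0.53 (adjusted p = 0.076), passed without wildtype replicate 3 (-0.66, adjusted p = 0.042) or labelled replicate 5 (-0.63, adjusted p = 0.047).

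**Figure D4:**
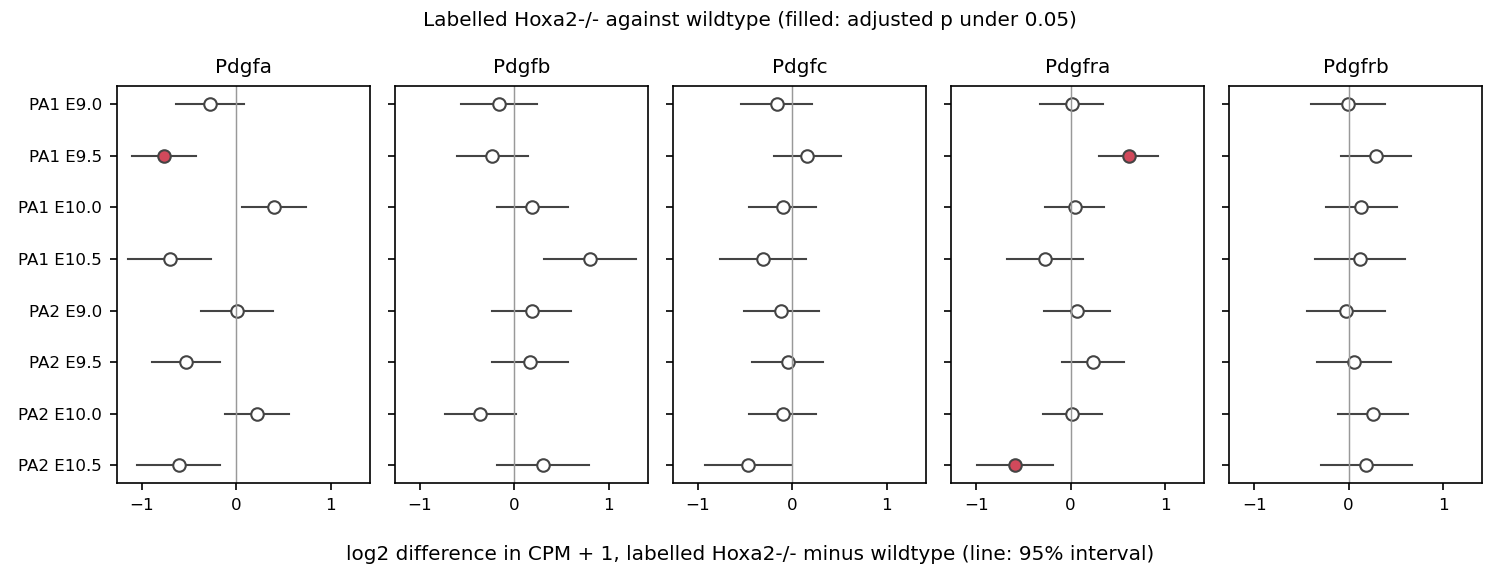
Difference between libraries labelled Hoxa2-/- and wildtype ones for each member, in log2(CPM + 1) (horizontal axis), by arch and stage (vertical axis), with 95% intervals as lines and adjusted p under 0.05 as filled points. The 3 filled points are Pdgfa and Pdgfra in PA1 at E9.5, to opposite sides of 0, and Pdgfra in PA2 at E10.5.

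Whether the label difference was larger in PA2, where Hoxa2 is transcribed, than in PA1 was tested directly at each stage, and no member passed in any of 20 tests. The shares of genes called were 0% (E9.0), 0.0109% (E9.5), 0.0163% (E10.0), and 0.038% for the last stage. At E9.0 limma called 0 genes, 1083 had an unadjusted p under 0.05, and edgeR's quasi-likelihood test called 0. Of the members the lowest adjusted p was 0.89. For Pdgfra at E10.5, the gene and stage called in PA2, the PA2 effect minus that of PA1 was -0.32 (95% interval -0.89 to 0.25).

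Set against each other within a library, the members changed their proportions with stage. Pdgfc over Pdgfa, both per kb of exon, had a geometric mean of 0.282 in wildtype PA1 at E9.0 and 1.63 at E10.5, and of 0.588 and 2.00 in wildtype PA2. Under the Hoxa2-/- label it was 0.304 and 2.15 in PA1, and 0.537 and 2.23 in PA2. Every library of E9.0 had less Pdgfc than Pdgfa per kb and every library of E10.5 had more. Pdgfra over Pdgfrb was 0.671 in wildtype PA1 at E9.0 and 1.28 at E10.5, and 0.687 and 1.5 in wildtype PA2. Under the label it was 0.679 and 0.974 in PA1, and 0.737 and 0.873 in PA2. All 6 wildtype libraries of E10.5 had more Pdgfra than Pdgfrb per kb, with log2 ratios of 0.26 to 0.69, above the 6 labelled Hoxa2-/- at -0.32 to 0.17. At E10.5 genotype and the unlabelled division cannot be told apart. At E10.0, where the labels do not coincide with it, Pdgfra over Pdgfrb was 0.833 in wildtype PA1 and 0.878 in wildtype PA2. Under the label it was 0.783 and 0.743 there, and the ranges of the labels overlapped in each arch. These ratios are given with no test.

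**Figure D5:**
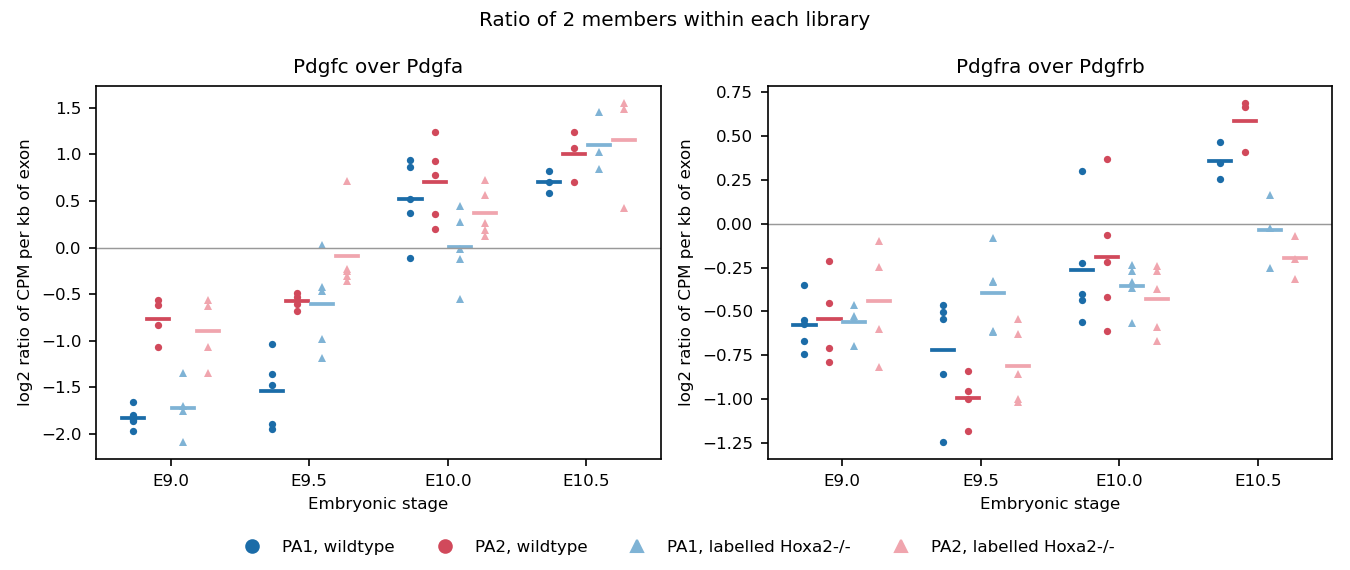
Log2 ratio of Pdgfc to Pdgfa and of Pdgfra to Pdgfrb within each library, both per kb of exon (vertical axis), by stage (horizontal axis), with 1 point per library, a bar at the group mean and a line at equal levels. Pdgfc over Pdgfa lies below 0 in all libraries of E9.0 and above 0 in all of E10.5, and Pdgfra over Pdgfrb lies above 0 in all 6 wildtype libraries of E10.5, a range that 2 wildtype libraries of E10.0, at 0.30 and 0.37, also reach.

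Among the members themselves, levels of log2(CPM + 1) over the 68 libraries went together most for Pdgfc and Pdgfra (Pearson r = 0.726) and for Pdgfra and Pdgfrb (0.662). As deviations from group means the receptors still went together at 0.660, or 0.539 without PA2 replicate 3 of E9.0 labelled Hoxa2-/-, while Pdgfc and Pdgfra stood at 0.390. Pdgfa went against the receptors within groups, at -0.304 with Pdgfra and -0.386 with Pdgfrb. Libraries share depth, stage and cell makeup, and these values are descriptions. Within groups both receptors also followed the long-gene index (r = 0.708 for Pdgfra and 0.839 for Pdgfrb). The part of the index in the values within groups was not tested.

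The genes most like each member over the 68 libraries were taken by rule. For Pdgfc they were Bcl11a, a zinc finger transcription factor (r = 0.961), Lpar1, a lysophosphatidic acid receptor (0.957), and Oxct1, an enzyme of ketone body use (0.957). For Pdgfra they were Mmp16, a membrane-bound matrix metalloproteinase (0.880), Phldb2 (0.872) and Bnc2, a zinc finger protein (0.871). For Pdgfrb they were Nid1, a basement membrane protein (0.899), Usp42, a deubiquitinase (0.888), and Neo1, a netrin and repulsive guidance receptor (0.880). Pdgfa was less like any gene, with Wnt4, a Wnt ligand, at 0.702, Snhg5 at 0.664 and Rbm28 at 0.663. Pdgfb reached 0.542 with Gnb2, 0.500 with Cables2 and 0.493 with Arpin. The long-gene index itself stood at 0.432 with Pdgfra and 0.801 with Pdgfrb over the same libraries.

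Within groups, as deviations from group means, other genes were mostly closest. They were Nell2, Oxct1 and Kremen2, the last a Dickkopf receptor, for Pdgfc (0.823, 0.771 and 0.770). For Pdgfra they were Slc36a4, Prkd3 and Trpm7 (0.819, 0.790 and 0.786), and for Pdgfrb Nid1, Gak and Mast2 (0.891, 0.882 and 0.881). Pkp3, a desmosomal plakophilin of epithelia, was closest to Pdgfa (0.599), ahead of Fbxl14 (0.595) and Wtip (0.584). Ift27 was closest to Pdgfb (0.659), ahead of Tomm22 (0.585) and Ppp1r16a (0.495). Marker lists, each taken as the mean log2(CPM + 1) of its tested genes, followed the members within groups only in part. The epithelial mean stood at 0.400 with Pdgfa but 0.033 with Pdgfc, and the mesenchyme mean at 0.152 with Pdgfra. The endothelial mean stood at 0.345 with Pdgfb and at 0.612 with Pdgfrb, above the mural mean at 0.473. The macrophage mean, over 6 tested genes, stood at 0.488 with Pdgfc, and the mesenchyme mean at 0.381 with Pdgfc. The long-gene index, which Pdgfra and Pdgfrb followed within groups at 0.708 and 0.839, was not taken out of these values. Its part in the likeness of genes and marker lists to the receptors was not tested.

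The rest of the pathway was read from lists of ligand proteases and binders, receptor effectors, receptor brakes, serum response factor genes, related receptors and their ligands. Pdgfd, the remaining ligand gene, averaged 3.67 to 7.09 CPM over the 16 groups. It fell with stage in PA2 labelled Hoxa2-/-, from 6.31 ± 1.73 to 3.67 ± 0.549 CPM (SD, n = 4 and 3, log2 difference -0.63, adjusted p = 0.0057), while wildtype PA2 read 6.02 ± 1.76 and 6.03 ± 1.09 CPM. Between the arches at E9.0 7 of 10 receptor brakes passed in the wildtype, beside 18.7% of all genes, 1 higher and 6 lower in PA2, with a median log2 difference of -0.26 against -0.01 over all genes tested. Under the label the counts were the same beside 24.6% of all genes, with a median of -0.40. There the calls over all genes went from 4527 to 1110 when only the groups compared were fitted. The labelled PA2 group includes replicate 3, with a long-gene index of -0.80. How far the calls of the brakes depend on the fit or on the index was not tested. Of the 25 effectors 2 passed at E9.0 in the wildtype and 3 under the label, a smaller share than of all genes. By E10.5 only 1 brake passed in each label, higher in PA2, beside 1.52% and 1.37% of all genes.

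By rule, 4 pathway genes were named for the arches. Pcsk6, a proprotein convertase of the kind that cleaves the A and B chains, was called higher in PA2 in 7 of 8 comparisons (log2 difference 0.72 to 1.5 over the 8), for instance at 28.4 ± 4.56 against 13.8 ± 1.64 CPM in the wildtype at E9.0 (SD, n = 4 and 5). Errfi1, a feedback inhibitor of the epidermal growth factor receptor, was higher in 7 of 8 (0.32 to 0.94). Fyn, a Src family kinase, was higher in 6 (0.14 to 0.57) and Stat5b, a transcription factor, in 5 of 8 (-0.07 to 0.73).

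For E10.5 against E9.0 the 5 named were 3 related receptors, a related ligand and a protease. Csf1r, the macrophage receptor, went from 0.551 ± 0.256 to 7.88 ± 0.920 CPM in wildtype PA1 (SD, n = 5 and 3), and Vegfd from 2.33 ± 0.939 to 8.19 ± 1.56 CPM. Both rose in all 4 series. Flt1, a receptor of endothelium, fell from 25.4 ± 0.990 to 7.96 ± 1.31 CPM there and in all 4 series, as did Pcsk6. Flt4, the receptor of Vegfd, fell in 2 of 4, from 34.8 ± 6.84 to 7.86 ± 1.29 CPM in wildtype PA1. Of the 7 genes around serum response factor, 4 and 4 passed in wildtype PA1 and PA2 and 3 and 3 under the label, all lower at E10.5, beside the 42.5%, 36.9%, 31.2% and 30.9% of all genes called in either direction, with medians of -0.39, -0.51, -0.39 and -0.15 where those of all genes were -0.02 to 0.01.

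The change of the arch difference with stage that both receptors showed was also called for some receptor brakes. Among the 10 it was 1 in the wildtype beside 3.35% of all genes and 4 under the label beside 7.33%, all in the direction of the receptors, with medians of 0.34 and 0.58 against -0.003 and 0.01 over all genes tested. The 1 in the wildtype was Errfi1, at 0.57 there and -0.13 under the label. Unlike the receptors, Errfi1 was higher in wildtype PA2 at E9.0, at 88.8 ± 11.25 against 68.2 ± 4.03 CPM in PA1 (SD, n = 4 and 5). Ptprj, a receptor phosphatase that can dephosphorylate PDGF receptor beta, had values of 0.92 in the wildtype and 1.51 under the label, and Lrig1, a transmembrane inhibitor of receptor kinases, 0.89 and 1.52. The ubiquitin ligases Cblb (0.62 and 0.84) and Cbl (0.28 and 0.68) and the Ras exchange factor Sos1 (0.60 and 0.85) followed. Each of Ptprj, Lrig1, Cblb, Cbl and Sos1 was called under the Hoxa2-/- label alone, and the difference between the labels was not tested. That comparison under the label includes PA2 replicate 3 of E9.0, with a long-gene index of -0.80. Its calls over all genes went from 1351 to 336 when only the groups compared were fitted. Alternatives were read for the 5 members only, so how far these pathway calls depend on that library or its index was not tested. No pathway gene was called in at least 4 of the 8 label comparisons in 1 direction.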

How the data were processed

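The deposited table gave a signal value for 21948 genes in 68 libraries of polyA RNA, amplified and made into libraries with SMART-seq v4 and Nextera XT kits per the labels' protocols. The authors used bcl2fastq 2.18, TopHat2 2.1.1, R 3.3.2 and the mm10 build per the submitters' processing notes. The counter, its annotation and its use of strand are not given in the sources used here. As deposited, the signal of a library summed to 926298 to 1051959, so it is reads scaled to a library size, called CPM here, and 100% of values were whole reads within 0.001 read.

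log2(value + 1) was fitted with limma 3.58.1 (R 4.3.3) over all 16 groups without a block, for 18428 genes with at least 1 CPM in at least 3 libraries, and p-values were adjusted by Benjamini-Hochberg in each contrast, with calls under 0.05. The tests were planned for CPM and kept for this unit. Differences are on that log2 scale, which understates changes of low genes such as Pdgfb. The arches of 1 embryo deviated together from their group means (median correlation 0.347 over 33 pairs, 30 of them over 0.1). A fit with the embryo as block was therefore made (consensus correlation 0.220). The median over 116 pairs of other embryos was -0.124. Deviations from group means make such pairs negative when same-embryo pairs are positive, so that value is no independent baseline. Alternatives were pseudocounts of 0.25 and 5, no filter and a filter of at least 5, median-of-ratios scaling, fitting only the groups compared, edgeR 4.0.16 on recovered reads, and leaving out each library.

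Exon lengths and positions came from GENCODE M21 (GRCm38) and promoters from RefSeq. Other tools were python 3.11.15, pandas 2.3.3, numpy 2.4.6 and matplotlib 3.10.9. The members and lists were chosen with earlier results of these data known, and the pathway genes named were up to 5 with the largest mean log2 difference per comparison, among those averaging at least 5 CPM in a group compared and called in 1 direction in 1 contrast of every 2 or more. The genes named for likeness were the 3 with the highest Pearson r, among genes averaging at least 5 CPM. The fits were tested on simulated data.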

Additional observations from a re-analysis of the deposited data

Results flagged for a closer look

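Of 60 sets of values, 1 member in 1 group of 4 or 5 libraries, 3 held a library far from the others, where chance gives about 1 in 20 (5%). Pdgfra read 153.6 CPM in PA2 replicate 4 of E9.5 labelled Hoxa2-/-, where the other 4 libraries read 98.0 to 112 CPM. Pdgfrb read 57.98 CPM in wildtype PA2 replicate 3 of E10.0, where the other 4 read 98.0 to 114 CPM. That library is 1 of the 4 in PA2 that were richest in red cell or yolk sac transcripts. Pdgfrb read 117.4 CPM in PA1 replicate 1 of E9.5 labelled Hoxa2-/-, where the other 4 read 88.1 to 93.9 CPM. All 3 concern the receptors.

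The arch difference of both receptors differed between E9.0 and E10.5 by a test of the difference itself. On the log2 scale it changed by 1.33 for Pdgfra and 1.13 for Pdgfrb in the wildtype. Under the Hoxa2-/- label it changed by 0.95 for Pdgfra and 1.22 for Pdgfrb. Of these, only the wildtype value of Pdgfra was called whichever single library was left out. Both values under the label were lost when only the groups compared were fitted (limma, adjusted p = 0.17 each).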

How the results depend on the processing

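Of 2844 member values under an alternative 2779 kept their side of the threshold, 36 lost a call and 29 gained one. No value called in the main fit or under the alternative changed sign. The sign of values called in neither was not checked. Without 1 library at a time the calls ranged from 7 to 9 of 40 between the arches, 2 to 5 of 40 between the labels, 0 to 0 of 10 between the labels at E10.0, 0 to 0 of 20 for the label effect of PA2 minus PA1, 10 to 12 of 20 between the stages and 2 to 4 of 10 for the change of the arch difference. When only the groups compared were fitted, calls between the arches went from 8 to 5 and between the labels from 3 to 6. The cause was not tested. Without the 10 PA2 libraries rich in heart genes, an alternative chosen after seeing the data like the others on marker genes and the long-gene index, the label effect of PA2 minus PA1 had 1 call (Pdgfrb at E9.0, -1.16, adjusted p = 0.043, with 1 PA2 library in each group).

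With the replicate block (1 embryo, both arches) the calls were 8, 3, 0, 0, 11 and 4 in that order, with no member's call changed, and edgeR gave the same 6 counts. Over all genes the block raised the calls for the arches by over 1.5 times at E10.0 (1095 to 1784 and 779 to 1550), at E10.5 (280 to 455 and 252 to 463) and at E9.5 under the label (1766 to 2870), for the change of the arch difference (617 to 1238 and 1351 to 2638) and for the label effect of PA2 minus PA1 at E10.5 (7 to 16). With only the groups compared, all-gene calls fell from 4527 to 1110 and 1766 to 870 (arches under the label, E9.0 and E9.5), 4343 to 1603 (label, PA1, E9.5), 2585 to 15 and 825 to 478 (label, PA2, E9.0 and E9.5), 5695 to 2338 (stage, PA2 under the label), 1351 to 336 (change of the arch difference under the label) and 2 to 1 and 3 to 1 (label effect of PA2 minus PA1, E9.5 and E10.0), and rose from 384 to 610 and 562 to 957 (label, PA1, E9.0 and E10.5), 617 to 1025 (change of the arch difference, wildtype) and 7 to 12 (label effect of PA2 minus PA1, E10.5). Without the 4 libraries rich in red cell or yolk sac transcripts, none of them in the groups compared, Pdgfrb passed between the wildtype arches at E9.5 (adjusted p = 0.018) with its difference unmoved. With 3 to 5 libraries a group and 3 reads at 0.140 to 0.328 CPM, differences of Pdgfb were the least well measured.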

Other observations

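Pdgfrl, which encodes a PDGF receptor-like protein without a kinase domain, was not among the 5 members and was chosen after its values were seen. It was higher in PA2 than in PA1 up to E10.0 under both labels, opposite to both receptors at E9.0. In wildtype PA2 it averaged 7.25, 8.10 and 7.69 CPM at the first 3 stages and in wildtype PA1 1.63, 1.74 and 2.70 CPM, with adjusted p of 1.6e-07, 1.1e-07 and 2.6e-05. At E10.5 the arches stood at 5.53 and 5.44 CPM. Under the Hoxa2-/- label it averaged 6.50 and 1.48, 7.86 and 2.06, 5.71 and 2.14, and 4.87 and 4.07 CPM at the 4 stages. From E9.0 to E10.5 it rose in PA1, by 1.30 in the wildtype (adjusted p = 3e-05) and 0.96 under the label (adjusted p = 0.0036). Its arch difference changed by -1.69 (adjusted p = 0.0026) and -1.32 (adjusted p = 0.021) between these stages, where that of Pdgfra and Pdgfrb changed by 0.95 to 1.33.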
